A study of Mus musculus with 6 samples.

Results

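The major urinary protein genes (Mup genes) of the mouse liver were examined through the 10 rows of the deposited count table that carry the symbols Mup1, Mup2, Mup3, Mup7, Mup10, Mup11, Mup12, Mup17, Mup20 and Mup21, out of 40803 genes in the table. The members were taken by symbol, and the rule used no measured value, although earlier results of these data were known when they were chosen. Liver RNA was sequenced from 6 male C57BL6 mice, 3 that had received the rAAV8-sh-scramble vector and 3 that had received the rAAV8-sh-Hnf1aos1 vector, to ask what the liver expresses when the long noncoding RNA Hnf1aos1 is lowered. All mice were about 6 weeks old when a recombinant adeno-associated virus of serotype 8 was injected into the tail vein, were given food without restriction, and were killed 4 weeks later. In the knockdown vector the short hairpin RNA is driven by the U6 promoter, which is active in most cell types, so the hairpin is not restricted to hepatocytes by its promoter. Both groups carried a virus and a hairpin, and no uninjected mice are among the libraries. Each library came from 1 mouse and is named by its group and its replicate number.

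Major urinary proteins are small secreted lipocalins that hepatocytes release into the blood and the kidney passes into the urine, where they bind volatile pheromones and themselves act as scent signals. The genes stand in a single tandem cluster whose central copies are almost the same in sequence, while a few peripheral copies have diverged. Male mice express them more strongly than females, because pulsatile growth hormone acts through the growth hormone receptor, JAK2 and STAT5B in hepatocytes, and thyroid hormone, glucocorticoids and androgens also raise them. Mup20 encodes darcin, the male pheromone that attracts females.

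Sequence decides how much of each gene such a library can measure, since the authors counted only reads that map to 1 place. In the GENCODE M21 annotation of GRCm38 all 10 members lie on the minus strand of chromosome 4, from Mup7 at chr4:60066469-60070475 to Mup21 at chr4:62147932-62150863, and Mup20 is at chr4:62050234-62054158 with Mup3 between them at chr4:62083476-62087342. Reads were counted over exons. The coding sequences of 7 members, Mup1, Mup2, Mup7, Mup10, Mup11, Mup12 and Mup17, were between 98.34% and 99.63% identical to each other over their 21 pairs, and these are called the near-identical members. The other 3 are called the divergent members: Mup20 was 90.06% to 91.34% identical to the near-identical members, Mup3 81.87% to 83.84% and Mup21 83.94% to 85.04%, while Mup3 and Mup21 shared 94.75%. Bases 127 to 186 of the coding sequence, counted from the start codon, show what this means for a read. Capitals mark bases that differ from the most common base among the 10 members.
Mup1: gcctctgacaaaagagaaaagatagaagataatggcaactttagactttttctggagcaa
Mup2: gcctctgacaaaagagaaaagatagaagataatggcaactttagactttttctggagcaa
Mup11: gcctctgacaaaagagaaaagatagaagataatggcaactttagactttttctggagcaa
Mup7: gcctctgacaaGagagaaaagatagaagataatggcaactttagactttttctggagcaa
Mup17: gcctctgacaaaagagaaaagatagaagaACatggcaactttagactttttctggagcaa
Mup20: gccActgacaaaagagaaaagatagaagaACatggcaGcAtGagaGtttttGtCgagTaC
Mup3: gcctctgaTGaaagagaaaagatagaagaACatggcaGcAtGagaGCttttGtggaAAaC
Mup21: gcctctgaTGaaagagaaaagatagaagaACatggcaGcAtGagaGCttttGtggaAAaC
In this stretch Mup1, Mup2 and Mup11 could not be told from each other by a single base, nor from Mup10 and Mup12, whose letters were the same. Mup7 differed from the common base at 1 position and Mup17 at 2, against 11 in Mup20 and 13 in both Mup3 and Mup21.

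The share of each transcript that a read could place was taken as the share of its 150-base windows, the read length, that no transcript of another gene holds. For Mup3 and Mup21 it was 100%, and for Mup20 it was 68.9%, because 242 of its 779 windows also occur in the pseudogene Mup-ps19. Mup17 had the largest share of the near-identical members, 59.6%. Below it stood Mup12 with 24.1%, Mup7 with 22.5%, Mup11 with 21.8%, Mup1 with 17.5%, Mup10 with 15.6% and Mup2 with 9.25%. A single read end was considered, whereas the libraries held paired ends, so a pair can be placed where 1 end cannot. Counts of the near-identical members therefore cover part of their transcripts, and how reads fell between these copies was not tested. Mup22, which is no member, had no window of its own in this annotation and yet held 449 to 815 reads, so the windows describe the reference and not the exact alignment that was made.

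**Figure D1:**
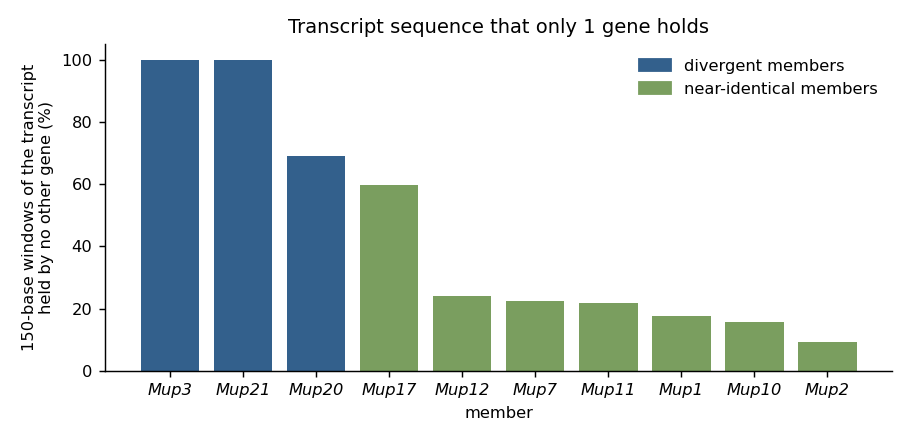
Share of 150-base windows of each member's principal transcript (vertical axis, percent) that is found in no transcript of another gene, in the GENCODE M21 annotation. Mup3 and Mup21 stand at 100%, Mup20 at 68.9%, and the 7 near-identical members range from 9.25% for Mup2 to 59.6% for Mup17.

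Promoter sequence was given by RefSeq on GRCm38.p6 for 7 of the 10 members, with no entry for Mup1, Mup12 and Mup20. The 250 bases before the RefSeq start are shown for a pair of near-identical members, Mup2 (chr4:60139857-60140106) and Mup17 (chr4:61595833-61596082), and for the divergent Mup3 (chr4:62087318-62087567) and Mup21 (chr4:62150842-62151091), all read 5′ to 3′ on the minus strand, because these genes kept different orders of libraries in the counts described further on. Capitals mark the motif TATATAA, a form of the TATA box.
Mup2: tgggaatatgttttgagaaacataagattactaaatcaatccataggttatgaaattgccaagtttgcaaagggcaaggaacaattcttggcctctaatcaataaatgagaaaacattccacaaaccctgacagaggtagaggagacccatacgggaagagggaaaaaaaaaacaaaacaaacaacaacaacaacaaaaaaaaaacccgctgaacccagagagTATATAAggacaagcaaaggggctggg
Mup17: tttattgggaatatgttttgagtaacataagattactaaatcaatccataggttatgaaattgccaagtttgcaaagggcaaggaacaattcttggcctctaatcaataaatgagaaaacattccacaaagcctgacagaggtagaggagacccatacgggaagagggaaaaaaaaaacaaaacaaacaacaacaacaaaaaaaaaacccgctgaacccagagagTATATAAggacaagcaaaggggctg
Mup3: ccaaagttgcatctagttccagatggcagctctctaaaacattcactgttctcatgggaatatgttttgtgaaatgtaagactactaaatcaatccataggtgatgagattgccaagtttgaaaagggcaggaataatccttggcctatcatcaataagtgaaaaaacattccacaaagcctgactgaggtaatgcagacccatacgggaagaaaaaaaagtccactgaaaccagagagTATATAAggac
Mup21: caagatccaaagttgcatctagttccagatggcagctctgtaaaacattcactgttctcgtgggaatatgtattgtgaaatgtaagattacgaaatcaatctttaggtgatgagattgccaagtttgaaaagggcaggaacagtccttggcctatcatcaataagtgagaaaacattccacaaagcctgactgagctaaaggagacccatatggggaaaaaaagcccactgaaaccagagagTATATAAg
TATATAA, searched on both strands, was found in 5 of the 7 members' promoters and in 3.04% of 32851 promoters of the same length. It began 27 bases before the start in Mup2, 25 in Mup17, 11 in Mup3 and 8 in Mup21. The STAT dimer motif TTCNNNGAA was in none of the 7 windows and in 7.02% of all promoters. A match or its absence describes these letters only.

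The 6 libraries held 14704746 to 16532510 gene counts in the rAAV8-sh-scramble group and 18021614 to 19462398 in the rAAV8-sh-Hnf1aos1 group. Counts below are scaled by TMM, edgeR's normalization for library size and composition, to a common library size and are called normalized counts. Hnf1aos1 itself was at 512, 491 and 620.3 normalized counts in scramble replicates 1 to 3, against 278, 258 and 433 after knockdown. The groups did not overlap, and the log2 fold change was -0.74 (SE 0.195), with an adjusted p of 0.0625 in edgeR's quasi-likelihood test, adjusted after Benjamini and Hochberg across 16327 genes, just short of the threshold of 0.05. Whether strand was used in counting is not stated, so reads shared with a transcript of the opposite strand cannot be told apart. Knockdown replicate 3 kept the most of it, and without that library the change was -1.01 with an adjusted p of 0.000261 in the same test. Leaving out any other single library gave -0.81 to -0.60, with adjusted p values of 0.113 to 0.218 in that test, so it was not called. The hepatocyte markers Alb, Ttr, Apoa1, Apob, Tat, Cps1 and Hnf4a summed to 79225 to 90164 CPM (counts scaled to a common total) in scramble livers, against 85560.1 to 100163 after knockdown, and 1 of the 7, Tat, fell. In whole liver, fewer cells of a type and less RNA per cell cannot be told apart.

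None of the 9 members that passed the filter on low counts was called in edgeR's quasi-likelihood test at an adjusted p under 0.05, where the calls took in 6.32% of all 16327 genes, split into 3.09% higher and 3.23% lower. One member, Mup20, had an unadjusted p under 0.05, a level that 23.4% of all genes reached, and with DESeq2, which called 7.8% of all genes, Mup20 was called, while limma's voom, at 5.19% of all genes, called no member. Of the 9, 6 had a log2 fold change above 0, and the median of the 9 was 0.61 against 0.00 over all genes. That median is the value of Mup7 (SE 0.521), and the near-identical members share sequence and so are not separate observations. Mup20 was also the only member whose 3 knockdown libraries all lay above the 3 scramble libraries, an order that 15.2% of all genes showed in this direction, 13.7% in the other and 28.9% in either. The tenth member, Mup10, held 2 or 3 reads in every library and was not tested.

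**Figure D2:**
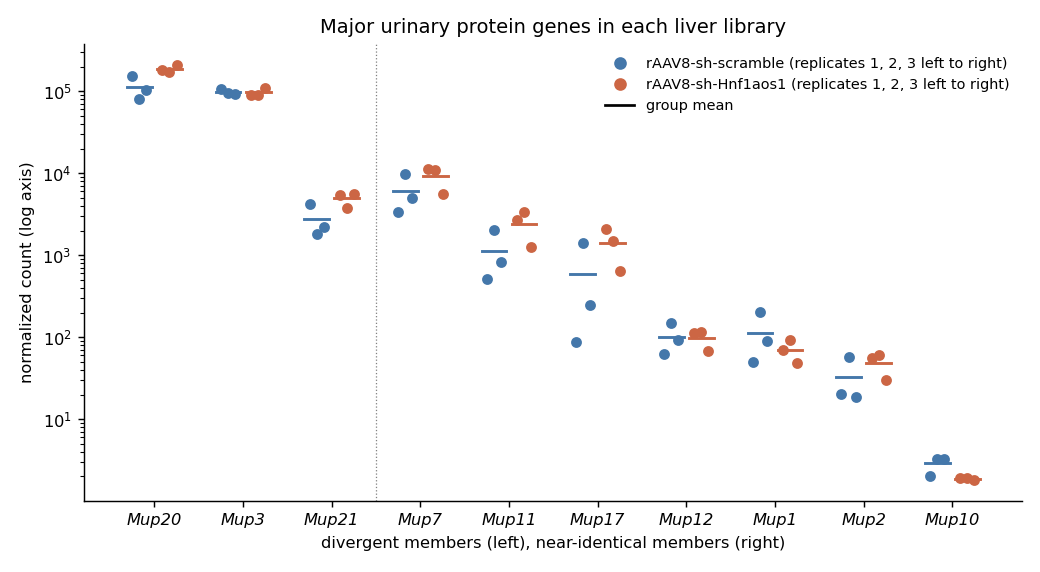
Normalized counts (vertical log axis) of the 10 members in each of the 3 rAAV8-sh-scramble and 3 rAAV8-sh-Hnf1aos1 libraries, with bars at group means. Mup20 and Mup3 lie between 80845 and 210659 in every library, and only Mup20 among the tested members has groups that do not overlap.

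Mup20, which encodes darcin, had the highest mean of the members in both groups, although Mup3 was above it in scramble replicate 2. Scramble replicates 1 to 3 held 152560, 80845 and 104154 normalized counts, and knockdown replicates 1 to 3 held 183237, 172224 and 210659. The lowest knockdown liver thus stood above the highest scramble liver, and the scramble livers were the more spread, with a highest value 1.89 times the lowest against 1.22 times. Group means were 112520 ± 36582 and 188707 ± 19792 (SD, n = 3 each). The fitted log2 fold change was 0.75 (SE 0.211), or 1.68-fold, with an adjusted p of 0.0698 in edgeR's quasi-likelihood test. By DESeq2 the adjusted p of the same change was 0.00131 and by limma's voom it was 0.0727. Without scramble replicate 1, the scramble liver with the most Mup20, edgeR gave 1.03 with an adjusted p of 0.0100, and without any 1 of the other 5 libraries 0.55 to 0.81 with adjusted p values of 0.127 to 0.271. In TPM, the authors' unit that divides by transcript length, Mup20 was at 19393, 10166 and 13827 in scramble livers against 23200.3, 20508 and 25285 after knockdown, again without overlap.

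Mup3, a divergent copy whose transcript a read can place over its full length, was the most even member. The scramble livers held 107449, 95937 and 93210.4 normalized counts and the knockdown livers 90589.6, 91086 and 111155. The 2 groups covered nearly the same range, and the highest library held 1.23 times the lowest. Its log2 fold change was -0.02 (SE 0.124, adjusted p = 0.946 by edgeR's quasi-likelihood test).

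Mup21, the member nearest to Mup3 in sequence, was at 4249, 1814 and 2179.8 normalized counts in scramble livers, against 5499.6, 3734 and 5548 after knockdown. Scramble replicate 1 lay above the lowest knockdown library, so the groups overlapped. The log2 fold change of 0.84 (SE 0.385) had an adjusted p of 0.274 in edgeR's quasi-likelihood test, and with single libraries left out it was 1.31 with an adjusted p of 0.00907 without scramble replicate 1 and 0.61 to 1.01, with adjusted p values of 0.329 to 0.515, without any 1 of the other 5. Within a library, where scaling between libraries plays no part, Mup21 held 0.0395, 0.0189 and 0.0234 reads for each Mup3 read in scramble livers, against 0.0607, 0.0410 and 0.0499 after knockdown. For Mup20 this ratio was 1.42, 0.843 and 1.12 against 2.02, 1.89 and 1.90. Both ratios were higher in all 3 knockdown livers than in any scramble liver, for Mup21 only narrowly, and such a separation of the ratio to Mup3 in this direction was found for 8.34% of all genes.

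In the near-identical members, mice of 1 group differed by more than the group means did. Mup7, the most abundant of them, had 3371, 9784 and 5046 normalized counts in scramble livers against 11412, 10886 and 5531 after knockdown, with a log2 fold change of 0.61 (SE 0.521). Mup11 ran from 508 over 819 to 2032 in the scramble livers, with replicate 2 the highest, and from 1248 over 2662 to 3382 in the knockdown livers, with replicate 3 the lowest. Its log2 fold change was 1.12 (SE 0.701). Mup17 spread the most, with 87.2, 1420.3 and 244 normalized counts in scramble livers against 2093, 1512 and 649 after knockdown. Scramble replicate 2 held 16.3 times as much Mup17 as scramble replicate 1, so the log2 fold change of 1.28 had an SE of 1.17. Scramble replicate 2 weighed on all 3 genes, since without it the log2 fold changes were 1.14 for Mup7, 1.87 for Mup11 and 3.10 for Mup17, and without scramble replicate 1 they were 0.33, 0.77 and 0.77. In edgeR's quasi-likelihood test the adjusted p was 0.547 for Mup7, 0.420 for Mup11 and 0.579 for Mup17.

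The remaining near-identical members were low. Mup1 was at 50.3, 203 and 89.1 normalized counts against 69.6, 91.2 and 48.9, scramble livers first. It had the lowest fitted log2 fold change of the members, -0.70 (SE 0.545, adjusted p = 0.493 by edgeR), which was 0.0021 without scramble replicate 2. Mup12 stood at 62.6, 147 and 91.3 against 113, 115 and 68.8, a log2 fold change of -0.02 (SE 0.319). Mup2 was at 20.5, 58.2 and 18.7 against 56.3, 60.8 and 29.9, a log2 fold change of 0.59 (SE 0.456), which was 1.31 without scramble replicate 2, 0.35 without scramble replicate 1 and 0.32 without scramble replicate 3. The adjusted p by edgeR was 0.976 for Mup12 and 0.472 for Mup2, and for these 3 genes the groups overlapped. Mup10 had 2, 3 and 3 reads against 2, 2 and 2, too few to read a direction.

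The same livers were high and low across the near-identical members. In all 6 of those tested, the highest scramble library was replicate 2 and the lowest knockdown library was replicate 3, an order found in 10.9% of the 16327 genes tested. It was shared by the 9 tested Mup genes that are no members and by 2 of 3 Mup pseudogenes, although most of these rows share much of their sequence and so are not separate observations, Mup6 with no shared window being the exception. Mup20 and Mup21 ran the other way, with scramble replicate 1 the highest and replicate 2 the lowest, and knockdown replicate 3 the highest and replicate 2 the lowest, an order seen in 2.77% of all genes. Across the 6 libraries the log2 normalized counts of the near-identical pairs had Pearson correlations between 0.44 and 0.98, and each of these genes against Mup20 gave values from -0.83 to 0.13. The points share libraries and group, the near-identical rows share sequence, and these values are a description.

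**Figure D3:**
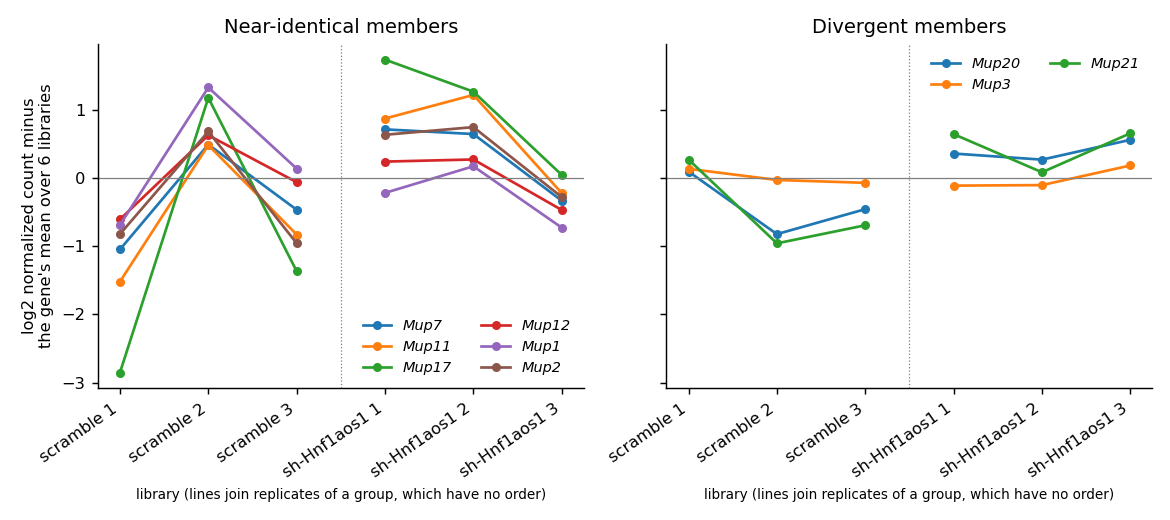
Log2 normalized counts of the 6 tested near-identical members (left) and the 3 divergent members (right) in each library, each gene centred on its mean over the 6 libraries. Near-identical members are highest in replicate 2 among the scramble livers and lowest in replicate 3 among the knockdown livers, whereas Mup20 and Mup21 are lowest in scramble replicate 2 and highest in knockdown replicate 3.

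Added together, the members do not depend on how reads are shared among themselves, though reads that fit several copies remain lost. Summed over the members, scramble livers held 268359, 192245 and 205856 normalized counts and knockdown livers 295734, 283094 and 334940. Every knockdown liver lay above every scramble liver, with means of 222153 ± 40590.3 and 304589 ± 27034 (SD, n = 3), a ratio of 1.37 or 0.46 on the log2 scale. Most of this difference lay in Mup20, with group means of 112520 and 188707, while those of Mup3 were 98865 and 97610. On the authors' TPM scale the sums were 35300, 25116 and 28329 against 38497, 34637 and 41403, and there scramble replicate 1 stood above knockdown replicate 2. Summed, the 7 near-identical members alone came to 4102, 13648 and 6312 against 16407, 16049 and 7578 normalized counts, and overlapped. The members took 1.58%, 1.13% and 1.27% of all gene counts in scramble livers, against 1.72%, 1.59% and 1.90% after knockdown. No test was made of a sum, since the members were chosen with results of these libraries known.

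The makeup of the family, as shares of the summed member TPM, also differed between the groups. Mup20 made up 54.9%, 40.5% and 48.8% in scramble livers against 60.3%, 59.2% and 61.1% after knockdown, 12.1 percentage points more on average. Mup3 made up 41.6%, 51.6% and 46.9% against 32.0%, 33.6% and 34.6%. Neither set of shares overlapped between the groups, but the shares add up to 100% and the log2 fold change of Mup3 was -0.02, so its smaller share is not a difference separate from that of Mup20, and the knockdown livers were the more alike. Near-identical members together held 1.45%, 6.71% and 2.90% against 5.30%, 5.43% and 2.16%, without a separation. Per length, over all 6 libraries, the order of mean TPM was Mup20 (18730), Mup3 (13204), Mup7 (933), Mup21 (641), Mup11 (223), Mup17 (122), Mup12 (11.7), Mup1 (10.7), Mup2 (4.29) and Mup10 (0.291). Mup20 and Mup3 were not apart in this order beyond their spread, since Mup3 was above Mup20 in scramble replicate 2, at 12959 against 10166 TPM. Mup7 and Mup21 also changed places, with Mup21 the higher in scramble replicate 1 (725 against 418 TPM) and in knockdown replicate 3 (894 against 648). Mup12 and Mup1 likewise differed by less than the spread of either between libraries. When normalized counts were instead divided by the number of windows found in no other gene, an alternative added after the data were seen, Mup11 moved above Mup21, at 10.4 against 7.27 counts per window, Mup1 (0.677) and Mup2 (0.566) moved above Mup12 (0.532), and Mup20 (280.5), Mup3 (118) and Mup7 (43.8) stayed the first 3.

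**Figure D4:**
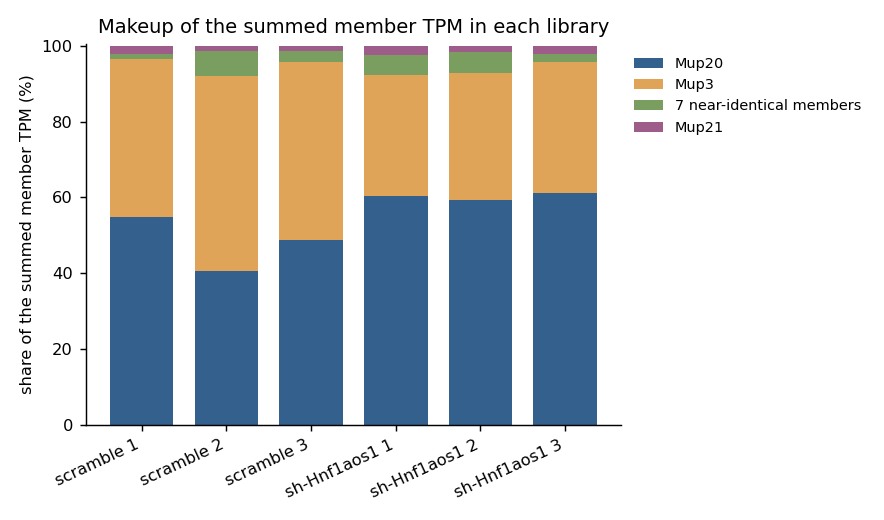
Shares of the summed member TPM (vertical axis, percent) held by Mup20, Mup3, Mup21 and the 7 near-identical members in each library. Mup20 covers 40.5% to 54.9% in the scramble and 59.2% to 61.1% in the knockdown libraries.

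The table holds 25 Mup rows in all, and the 15 that are no members gave the surroundings. Of their 12 tested rows, 10 had a log2 fold change above 0, none was called by edgeR, 1 (Mup16) had an unadjusted p under 0.05, DESeq2 called that 1 and limma's voom none. Mup15, whose closest coding sequence is that of Mup2, had the highest fitted change of any Mup row by edgeR and DESeq2, while by limma's voom Mup18 was fitted above it, at 2.99 on the log2 scale. It held 273, 2582 and 693 normalized counts in scramble livers against 8511, 6430.5 and 2426 after knockdown. Knockdown replicate 3 was below scramble replicate 2, and the log2 fold change of 2.29 (SE 1.05) had an adjusted p of 0.293 by edgeR. Mup16 was at 84.1, 193 and 90.2 against 516, 538 and 232 normalized counts, without overlap, and its log2 fold change of 1.81 (SE 0.501) had an adjusted p of 0.115 by edgeR and 0.0136 by DESeq2. Mup18 was fitted at 2.02 (SE 1.07), Mup9 at 0.90 (SE 0.852), Mup14 at 0.70 (SE 0.478), Mup19 at 0.17 (SE 0.771), Mup22 at 0.12 (SE 0.305) and Mup8 at 0.05 (SE 0.562), on the log2 scale. Mup6, at the edge of the cluster and at most 18.7 normalized counts, was fitted at -0.73 (SE 0.535), and the pseudogenes Mup-ps12, Mup-ps15 and Mup-ps16 at 0.15, 0.19 and -0.64. Mup4, Mup5 and Mup13 had at most 6 reads in a library and were not tested.

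**Figure D5:**
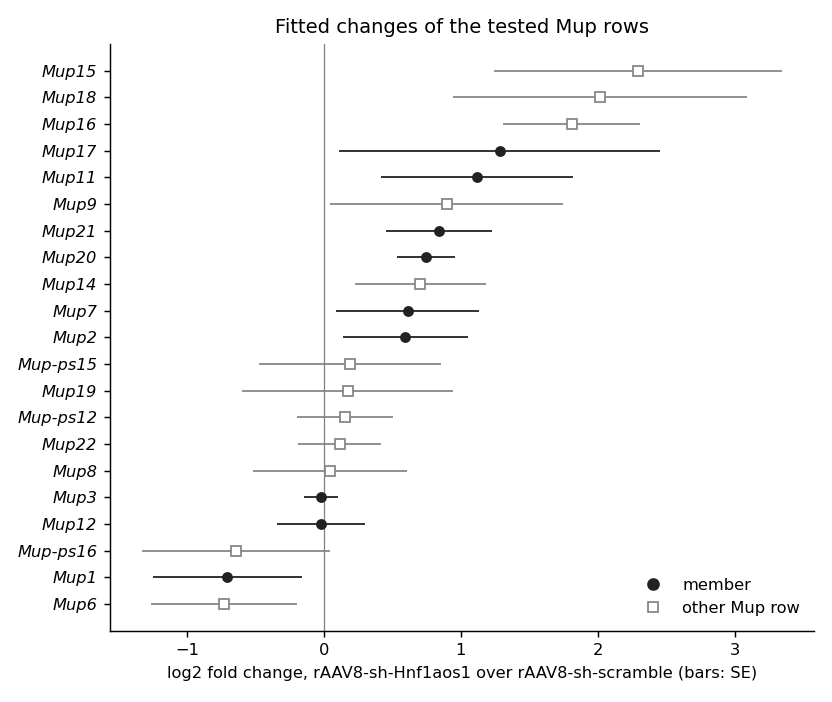
Fitted log2 fold changes (horizontal axis, rAAV8-sh-Hnf1aos1 over rAAV8-sh-scramble, bars SE) of the 21 tested Mup rows, members filled and other rows open. The values run from -0.73 for Mup6 to 2.29 for Mup15, and the narrowest bars belong to Mup3 (SE 0.124) and Mup20 (SE 0.211).

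Among the genes that carry the growth hormone signal in hepatocytes, 2 feedback inhibitors were higher after knockdown. Of 13 genes of growth hormone receptor and STAT5 signalling, all tested, these 2 were called higher and none lower by edgeR's quasi-likelihood test, which called 3.09% of all genes higher, with a median log2 fold change of 0.03. Cish, a STAT5-induced suppressor of cytokine signalling, was at 48.2, 41.7 and 37.4 normalized counts in scramble livers against 254, 429 and 880.4 after knockdown, a log2 fold change of 3.61 (SE 0.602, adjusted p = 0.0416 by edgeR). Socs3, an inhibitor of the same family that interleukin signals also induce, rose by 2.11 on the log2 scale (SE 0.339, adjusted p = 0.0169 by edgeR). These 2 were not called by limma's voom, at adjusted p values of 0.112 and 0.0681, and leaving out any 1 scramble library left no gene of the list called by edgeR. Without knockdown replicate 3, edgeR called 5 of the 13. DESeq2, which called 7.8% of all genes, called 4 of the 13, with Cish and Socs3 among them. Socs2, another such inhibitor and a target of growth hormone in liver, was at 146, 188 and 72.6 against 366, 281 and 708 normalized counts, with no overlap. Its log2 fold change was 1.74 (SE 0.521), with an adjusted p of 0.137 by edgeR and 0.0258 by DESeq2. The receptor gene Ghr was fitted at -0.13 (SE 0.120), the transcription factor gene Stat5b at -0.27 (SE 0.0993) and Igf1, the hormone-induced growth factor, at -0.28 (SE 0.126), with adjusted p values by edgeR of 0.552, 0.125 and 0.211.

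Among 18 regulators of sex-biased liver genes, all tested, 4 were lower and none higher by edgeR, where 3.23% of all genes were called lower, and 3 of the 4 are described. Bcl6, a repressor that STAT5 turns down and that keeps female-type genes low in male liver, fell from 2005, 2185 and 1879.6 to 503, 985 and 937 normalized counts, a log2 fold change of -1.32 (SE 0.252, adjusted p = 0.0377 by edgeR). Nr1i3, which encodes the xenobiotic receptor CAR, changed by -0.63 (SE 0.126, adjusted p = 0.0172 by edgeR), and Tox, a nuclear factor expressed more in female liver, by -1.31 (SE 0.261, adjusted p = 0.0174 by edgeR). Cux2, a female-biased repressor, was at 13.2 to 20.5 against 11.4 to 13.3 normalized counts and was fitted at -0.46 (SE 0.348). Zhx2, a repressor of liver genes, was fitted at -0.01 (SE 0.0918) and Hnf4a, the hepatocyte nuclear receptor, at -0.08 (SE 0.122), and the adjusted p by edgeR was 0.459 for Cux2, 0.940 for Zhx2 and 0.724 for Hnf4a. Of the 18, 6 had a log2 fold change above 0. Onecut1 was at 340, 505 and 179 against 1473, 1117 and 2071 normalized counts. Its log2 fold change was 2.19 (SE 0.462), with an adjusted p of 0.0704 by edgeR and 0.000223 by DESeq2. DESeq2, which called 7.8% of all genes, called 7 of the 18, among them Onecut1, Foxa2 and Rxra as higher. By edgeR, without scramble replicate 2 or scramble replicate 3 none of the 18 was called. Without scramble replicate 1 or knockdown replicate 2 the count was 2 and 1.

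Genes that share the male bias of the Mup genes were partly higher. Of 20 male-biased genes, all tested, 6 rose and none fell by edgeR, where 3.09% of all genes were called higher, and the median log2 fold change of the list was 0.30. Cyp7b1, an oxysterol hydroxylase of bile acid synthesis, was at 3549.9, 3531 and 2861 normalized counts in scramble livers against 7542, 7599 and 6050.2 after knockdown, a log2 fold change of 1.09 (SE 0.124, adjusted p = 0.00154 by edgeR). Selenbp2, a selenium-binding protein gene, rose by 1.93 on the log2 scale (SE 0.233, adjusted p = 0.00682 by edgeR). The other 4 were Ugt2b38, a glucuronosyltransferase gene, at 0.92, Gstp2, a glutathione transferase gene, at 1.83, C6, a terminal complement component, at 0.61, and Serpina1e, an antitrypsin gene with near-identical copies of its own, at 0.84. Of the 20, 14 had a log2 fold change above 0. Elovl3 was lower, at 6410, 8726 and 7290 against 3109, 5376 and 5500 normalized counts. Its log2 fold change was -0.68 (SE 0.229), with an adjusted p of 0.129 by edgeR and 0.00472 by DESeq2. DESeq2, which called 7.8% of all genes, called 10 of the 20, Elovl3 among them. By edgeR, without scramble replicate 3, 3 of the 20 were called, and without knockdown replicate 3, 10.

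Female-biased genes were mostly too low to test in these male livers. Of 21, 8 were tested, 2 were lower and none higher by edgeR, again beside 3.23% of all genes called lower, and 7 of the 8 had a log2 fold change below 0. Acot3, a peroxisomal acyl-CoA thioesterase gene, was at 198, 207 and 175 against 21.9, 11.4 and 25.4 normalized counts, a log2 fold change of -3.29 (SE 0.240, adjusted p = 0.000142 by edgeR). Fmo2, a flavin monooxygenase gene, fell by 0.68 on the log2 scale (SE 0.169, adjusted p = 0.0390 by edgeR). Without scramble replicate 3, knockdown replicate 1 or knockdown replicate 2 the count was 1, and with DESeq2 it was 4. The 13 untested genes, among them Cyp2b9, Sult2a1 and A1bg, held at most 27 reads in a library.

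Markers of other cells were read from the same libraries. Of 7 Kupffer cell and macrophage markers, 2 (Clec4f and Adgre1) were higher by edgeR, where 3.09% of all genes were called higher. The list summed to 163 to 198 CPM in scramble livers and 208 to 268 after knockdown. Cholangiocyte markers summed to 19.3 to 21.8 against 26.9 to 133, neutrophil markers to 0.128 to 0.193 against 0.582 to 1.33, with Ly6g and Mpo at 0 in every library, and skeletal muscle markers to 48.3 to 181 against 23.0 to 49.9. No neutrophil marker had enough reads to be tested. S100a8 was at 1, 1 and 2 reads against 7, 11 and 4, and S100a9 was at 2, 1 and 0 against 12, 9 and 6, without overlap. Among all genes tested, 15.2% had groups apart in this direction. None of the 3 tested cholangiocyte and 5 tested muscle markers was called. The 3 cholangiocyte markers differed in direction, with Krt19 fitted at -1.03 (SE 0.649), Epcam at 0.35 (SE 0.868) and Spp1 at 1.79 (SE 0.788) on the log2 scale. The sums of the lymphocyte, endothelial, stellate and adipose markers overlapped between the groups, and no single marker of these lists was called by edgeR. The part of these cells in the values of the Mup genes was not tested.

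The genes most like the summed members in their pattern over the 6 libraries were found among 12888 genes that are no Mup, by the root mean square difference of centred log2 normalized counts. They were Tvp23b (0.079), Fastkd3 (0.0823), Nfatc2ip (0.0827), Zfp65 (0.0851) and Yju2 (0.0858). The 5 genes stood between 30.7 and 259.9 normalized counts, far below Mup20 and Mup3, and were fitted at log2 fold changes of 0.41 to 0.58. They were picked for this likeness, so fold changes near that of the summed members follow from the choice.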

How the data were processed

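RNA-seq of liver was analysed in 6 libraries, 3 per group, with samples grouped by their labels and each replicate 1 mouse. According to the methods, the authors trimmed 150-base paired reads, aligned them with STAR to GRCm38 and counted uniquely mapped exonic reads with featureCounts; the submitters' processing notes name GRCm39, and the build of the counts was not settled here. The library kit is given as poly(A)-selected and stranded in the methods and as rRNA-depleted in the labels, and the strand setting of the counting is not given in the sources used here. The deposited raw counts are whole numbers without normalization for 40895 rows, of which 92 ERCC spike-in rows were left out. The authors deposited TPM values, scaled by length and library total, over the same rows. Normalized counts of the authors, a signal scaled by 1 factor per library, were used in an alternative. A table of the authors' own comparison with log2 fold changes and p-values was not used.

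Counts were compared in R 4.3.3 with edgeR 4.0.16 (TMM, filterByExpr, robust glmQLFit and glmQLFTest, group as the only term, Benjamini-Hochberg over all genes tested, adjusted p under 0.05). The common biological coefficient of variation was 13.9%. Alternatives were DESeq2 1.42.0, limma 3.58.1 (voom), DESeq2 size factors, library totals, TMM without the Mup rows, ERCC-based sizes, no filter, a mean of at least 50 counts, the replicate number as a block, TPM plus 0.1, and each library left out. The edgeR step was tested on simulated data. Library totals were 14704746 to 19462398, and the parts of read sampling, read placement and differences between mice in the error of each member were not separated. An exact permutation test of 3 against 3 cannot give less than 0.1 and was not used. Windows and coding identity came from GENCODE M21 transcripts (principal isoforms, Biopython) and promoters from RefSeq. Named genes were all members, the other Mup rows, Hnf1aos1, genes called in each list (at most 6) with Ghr, Stat5b, Socs2, Cish, Igf1, Bcl6, Cux2, Zhx2 and Hnf4a, and the 5 most like genes; marker genes, Cyp2b9, Sult2a1 and A1bg were named in addition, and 1 further gene of this rule is not reported here. The members and the lists were chosen with earlier results of these data known.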

Additional observations from a re-analysis of the deposited data

How the results depend on the processing

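Of the 9 tested members, Mup2, Mup7, Mup11, Mup17, Mup20 and Mup21 kept a log2 fold change above 0 under every alternative run, of which the minimum mean of 50 counts gave no value for Mup2. Mup3 turned to 0.19 with ERCC-based sizes and ran from -0.12 to 0.048 with single libraries left out. Mup12 turned to 0.031 with voom, 0.17 with ERCC-based sizes and 0.012 with the replicate block, and ran from -0.27 to 0.36 with single libraries left out, and Mup1 ran from -1.06 to 0.0021. The members called were 1 with DESeq2 and 1 with ERCC-based sizes (Mup20), 2 with the replicate block (Mup20, adjusted p 0.0497, and Mup21, 0.0480), and 0 to 2 with single libraries left out. Over its alternatives the adjusted p of Mup20 ran from 0.00131 to 0.271. Same-numbered mice did not deviate together (correlations of -0.0271, 0.0194 and 0.00724), so the numbers do not pair them; under the block 878 genes were called in place of 1032. Hnf1aos1 was called at -0.75 (DESeq2), -0.77 (voom), -0.74 (no filter) and -0.77 (replicate block), and ran from -1.01 to -0.60 with single libraries left out. The log2 ratio of the summed members was 0.66 with ERCC-based sizes and 0.36 to 0.61 with single libraries left out. ERCC-based sizes moved the median of all genes by 0.20 and called 3394 genes, 3030 of them higher against 505 of 1032; library totals gave 320 higher of 1048, and no filter called 1902. Without scramble replicate 3, 103 genes were called, without scramble replicate 2, 390, without knockdown replicate 2, 323, without scramble replicate 1 or knockdown replicate 1, 630 each, and without knockdown replicate 3, 1881. Calls over all other lists were 20, and 37 with DESeq2, 38 with ERCC-based sizes and 4 to 32 with single libraries left out. The cause of these shifts was not tested. Reads that fit several Mup copies are not in the counts, which limits the near-identical members most.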

Other observations

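Other abundant secreted proteins of the hepatocyte were partly higher beside the Mup genes. Of 22 such genes, all tested, 6 rose and none fell in edgeR's quasi-likelihood test at an adjusted p under 0.05, where 3.09% of all genes were called higher, with a median log2 fold change of 0.21. The 3 fibrinogen chain genes rose together, Fgb by 1.11, Fga by 1.06 and Fgg by 1.04 on the log2 scale. Fgb stood at 50485, 44448 and 46264 normalized counts in scramble livers against 111490, 119862 and 73476 after knockdown (adjusted p = 0.00682 by edgeR). Hpx, the haem carrier hemopexin, rose by 1.00, Serpina3k, a serine protease inhibitor gene, by 0.65 and Ahsg, which encodes fetuin-A, by 0.52. Alb was fitted at 0.06 (SE 0.135, adjusted p = 0.841 by edgeR). Of the 22, 19 had a log2 fold change above 0. Apoa2, an apolipoprotein gene, was lower, at 42487, 43856 and 45659 against 27365.5, 33168 and 38285 normalized counts. Its log2 fold change was -0.42 (SE 0.130), with an adjusted p of 0.0796 by edgeR and 0.0177 by DESeq2. DESeq2, which called 7.8% of all genes, called 9 of the 22, Apoa2 among them. Without scramble replicate 3 none of the 22 was called, and without scramble replicate 2 the count was 2.

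Of 12 other lipocalin genes, the protein family to which the major urinary proteins belong, 11 were tested and none was called by edgeR. DESeq2, which called 7.8% of all genes, called 3 of them, Lcn2, Orm1 and Orm2. Of the 11, 7 had a log2 fold change above 0. Lcn2, an iron-binding lipocalin of the acute-phase response, was at 15.4, 31.8 and 58.3 normalized counts in scramble livers against 433, 2035 and 53.4 after knockdown, so knockdown replicate 3 stood within the scramble range. Orm1, which encodes the acute-phase protein orosomucoid, was at 4918, 5599 and 5224 against 12926, 12870 and 6393. Knockdown replicate 3 was thus the lowest knockdown library for Lcn2 and Orm1. With replicate 2 its highest scramble library, Orm1 had the order of the near-identical Mup members, which 10.9% of all genes showed. Lcn2 did not have that order, since its highest scramble library was replicate 3. For Orm1 edgeR gave a log2 fold change of 1.03 (SE 0.269, adjusted p = 0.0772). Ptgds and Apod were lower. Ptgds was at 23.6, 20.9 and 27.5 against 10.5, 10.5 and 1.81 normalized counts, and Apod at 21.5, 34.0 and 18.7 against 13.4, 7.60 and 6.34. Their log2 fold changes by edgeR were -1.66 (SE 0.478, adjusted p = 0.0641) and -1.44 (SE 0.406, adjusted p = 0.0605).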
